A study of Homo sapiens with 6 samples.

Results

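DEAD and DEAH box RNA helicases are enzymes that use ATP to remodel RNA and RNA-protein complexes, and in these data they are the genes whose symbols are DDX or DHX followed by a number and at most 1 letter. Symbols ending in P, entries described as pseudogenes and the Y-linked DDX3Y were left out, which gave 54 genes of 61806 in the deposited table. The cells were MG63, an established human osteosarcoma line. Control cells (shNC) were set against cells in which FTO was stably knocked down by short hairpin RNA (shFTO), with 3 biological replicates of each. Poly(A) RNA was sequenced on a strand-specific protocol, and the number of hairpins or clones was not given in the labels. FTO encodes an enzyme that removes the methyl mark N6-methyladenosine from RNA, and the design asked which transcripts depend on it.

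The helicase core of these proteins binds ATP through a set of short conserved motifs, and the family names spell the amino acids of one of them, motif II. DEAD box proteins mostly pry apart short helices locally, whereas DEAH box proteins pull along a single strand. They act in splicing, ribosome assembly, mRNA export, translation and mRNA decay, and some of them sense viral RNA. In a growing tumour line such as MG63, splicing and ribosome assembly are steady needs of the cell.

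Expression was deposited as FPKM, that is reads scaled by exonic length and by library total, from which the underlying whole reads were computed back. The libraries held 93629 to 106245 reads, and 7057 genes had at least 1 read. FTO was listed at 0 in all 6 libraries, so the knockdown could not be checked on its target. A count of 0 allows up to 3 reads, or 0.486 FPKM over the shNC group and 0.462 over the shFTO group. Detection was uneven beyond FTO: EIF4G2 alone held 8.7% of all reads, while VIM, an intermediate filament gene abundant in mesenchymal cells, had 85 reads and EIF4A3, a helicase gene that most cells need, had 1. Whether the deposited values cover the whole of each library, or a part or selection of it, was not given in the labels and was not tested. Levels, ranks and zeros below therefore describe the deposited values, and a gene listed at 0 is not shown to be unexpressed. Of 12 mesenchymal and bone lineage markers 8 had reads, from 74 to 110 summed reads per library, while SP7, ALPL, BGLAP and IBSP were listed at 0. Blood and neural markers had 0 reads, endothelial markers 1 and epithelial markers 8, with 0, 0 and 1 in the shNC libraries and 4, 0 and 3 in the shFTO libraries. These limits and the counting intervals below cover counting error only.

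The sequence behind the family name is shown for the 6 best-read helicase genes and for DDX21, the closest neighbour of DDX50. Each line holds 42 bases of coding sequence, 5′ to 3′, from the GENCODE release 29 transcripts on GRCh38, with the 4 codons of motif II in capitals.

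DDX3X: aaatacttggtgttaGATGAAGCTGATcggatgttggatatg
DDX5: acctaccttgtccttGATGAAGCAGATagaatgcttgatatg
DDX17: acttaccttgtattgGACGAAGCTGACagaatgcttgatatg
DDX6: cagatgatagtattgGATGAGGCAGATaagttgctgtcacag
DDX50: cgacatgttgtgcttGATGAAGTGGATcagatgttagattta
DDX21: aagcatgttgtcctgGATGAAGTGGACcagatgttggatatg
DHX15: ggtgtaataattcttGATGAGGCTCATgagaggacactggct

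The codons of DDX3X, DDX5, DDX17 and DDX6 spell DEAD, those of DHX15 spell DEAH, and those of DDX50 and DDX21 spell DEVD. They lie in coding exons at chrX:41345193-41345204 (plus strand) in DDX3X and at chr17:64503245-64503256 (minus) in DDX5. The positions were chr22:38494943-38494954 (minus) in DDX17 and chr4:24556323-24556334 (minus) in DHX15. In DDX50 and DDX21 they were chr10:68913501-68913512 and chr10:68967128-68967139, both on the plus strand. In DDX6 the codons are split between exons 7 and 8 on chromosome 11. DDX5 and DDX17 had 35 of the 42 bases in common, and DDX50 and DDX21 had 33, whereas DHX15 shared 14 to 19 with the others. Across all 54 genes, the motif was searched between 85 and 130 codons after the ATP-binding motif I. It read DEAD in 27 genes, DEAH in 8, DEVH in 4, DECD, DECH, DEIH and DEVD in 2 each and DESD in 1, and it was not found in that window in 6. No class lacked reads altogether: 14 of the 27 DEAD genes and 5 of the 8 DEAH genes had at least 1.

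Reads of the family were concentrated in a few genes. The 54 genes held 34148 of 592760 reads, or 5.76%, and DDX3X and DDX5 together held 89.9% of these. With DHX15 the share was 97.2%. Only DDX3X, DDX5, DHX15, DDX6, DDX17 and DDX50 averaged 10 reads or more per library. Another 25 genes had 1 to 28 reads in all, and 23 genes were listed at 0 in every library. For these 23, 3 reads over the 6 libraries would stand for 0.28 to 2.18 FPKM, depending on exonic length. That is a counting limit on the deposited values and not a limit on expression, since helicase genes that most cells need, such as DHX8, DHX16, DDX47, DDX49 and DDX54, were among the 23. Among 19838 protein-coding genes in the table, 32.9% had a read and 3.39% averaged 10 reads, so 31 and 6 of 54 helicase genes stand beside those shares as a description. The median exonic length was 6908 bases for the genes at 0, 5906 for those with 1 to 28 reads and 9654 for the 6 that averaged 10 reads or more.

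**Figure D1:**
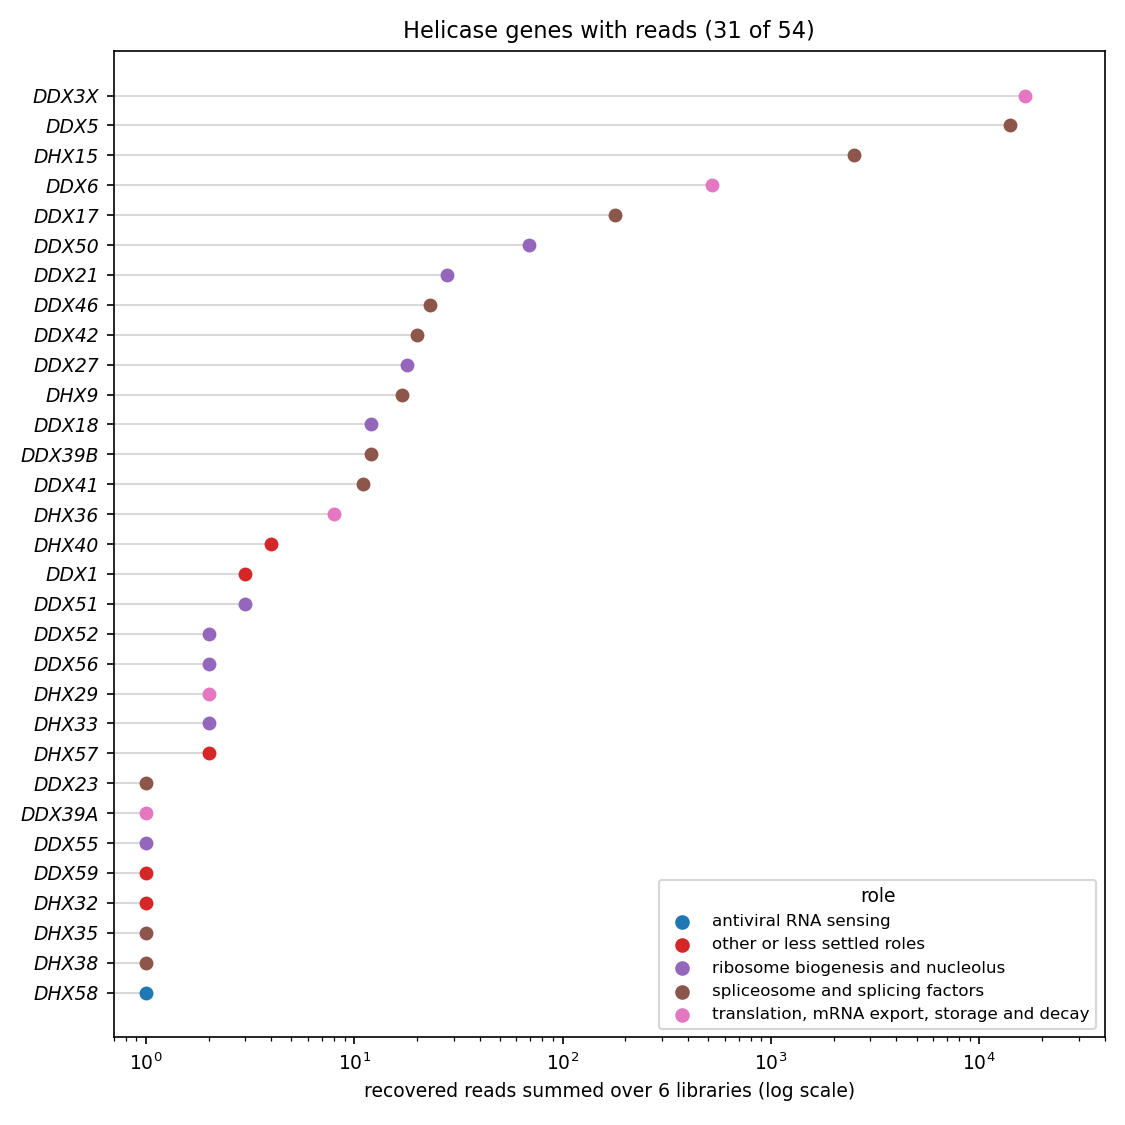
Recovered reads summed over the 6 libraries (log scale) for the 31 helicase genes with reads, coloured by role. DDX3X lies at 16654 and DDX5 at 14046 reads, and 25 genes lie at 28 or fewer.

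DDX5, a splicing cofactor and transcriptional coregulator (ENSG00000108654, chr17:64498254-64508199, minus strand), had the highest level per length. It stood at 2591, 2625 and 2551 FPKM in shNC replicates 1, 2 and 3 and at 2498, 2575 and 2440 FPKM in shFTO replicates 1, 2 and 3. The shFTO libraries lay mostly lower, but shFTO replicate 2 was above shNC replicate 3, so the groups overlapped. The means were 2589 ± 36.8 and 2505 ± 67.7 FPKM (SD, n = 3). In limma on log2(FPKM + 1) the log2 change was -0.05 (SE 0.06, adjusted p = 0.779), and its 95% interval ran from a ratio of 0.891 to one of 1.05.

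DDX3X, an X-linked helicase that helps ribosomes start on structured mRNA (ENSG00000215301, chrX:41333348-41364472, plus strand), had the most reads of the family. It had 16654 against 14046 for DDX5, but its exonic length of 15828 bases against 9311 put it second per length. It stood at 1852, 1871 and 1728 FPKM in the shNC replicates and at 1724, 1851 and 1638 FPKM in the shFTO replicates. Again the lowest value was in shFTO and the ranges overlapped. The means were 1817 ± 77.3 and 1738 ± 107 FPKM, with a log2 change of -0.07 (SE 0.07, limma adjusted p = 0.772) and an interval from a ratio of 0.866 to one of 1.05.

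DHX15, the DEAH helicase that takes the spliceosome apart after splicing (ENSG00000109606, chr4:24517441-24584554, minus strand), came next. It had 498, 477 and 524 FPKM in shNC and 556, 545 and 503 FPKM in shFTO. Here the highest values were in shFTO, with shFTO replicate 3 inside the shNC range. The means were 500 ± 24.0 and 535 ± 27.9 FPKM, the log2 change was 0.10 (SE 0.11, limma adjusted p = 0.772), and the interval ran from a ratio of 0.913 to one of 1.25. For DDX5, DDX3X and DHX15 the 95% intervals therefore left out a 1.5-fold change in either direction, within this model. That DDX5 exceeded DDX3X, DDX3X exceeded DHX15 and DHX15 exceeded DDX6 held in 6 of 6 libraries.

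DDX6, a decay and translational repression factor of cytoplasmic granules (ENSG00000110367, chr11:118747763-118791164, minus strand), was read far less. It had 87.9, 67.4 and 84.8 FPKM in shNC and 75.6, 90.9 and 55.7 FPKM in shFTO. Both the highest and the lowest value were in shFTO. The log2 change was -0.13 (SE 0.25, limma adjusted p = 0.891), and without shFTO replicate 3, the lowest library, it was 0.06.

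DDX17, the close paralogue of DDX5 (ENSG00000100201, chr22:38483438-38507660, minus strand), had 27.6, 43.6 and 27.8 FPKM in shNC and 33.0, 15.95 and 30.9 FPKM in shFTO. The groups overlapped, with 1 high control and 1 low knockdown library. Its log2 change was -0.33 (SE 0.38, limma adjusted p = 0.772), and it was -0.12 without shNC replicate 2 and -0.01 without shFTO replicate 2. Within a library DDX5 stood 60.2 to 161 times above DDX17 per length. No 50-base stretch of the coding sequence of either gene occurred in a transcript of another gene, on either strand.

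DDX50, a nucleolar helicase (ENSG00000107625, chr10:68901286-68946847, plus strand), had 7.9, 70.1 and 63.7 FPKM in shNC and 35.1, 31.7 and 50.4 FPKM in shFTO. These values came from 2, 19 and 16 reads against 10, 8 and 14. Only shNC replicate 1 stood apart, at 2 reads. The mean was lower in shFTO, at 39.1 ± 9.99 against 47.2 ± 34.2 FPKM, whereas the change fitted on the log scale was positive. The log2 change was 0.19 (SE 0.94, limma adjusted p = 0.96), and without shNC replicate 1 it was -0.79 (SE 0.33, adjusted p = 0.787), while without shFTO replicate 3 it was -0.005. Of the 50-base stretches of its coding sequence 11.9% also occurred in other genes, chiefly the pseudogenes DDX50P1 and DDX50P2, against 3.93% for DDX6 and 1.6% for DDX3X. Some reads of DDX50 may therefore be uncertain, but the share is one of sequence and not of reads. Both pseudogenes were listed at 0.

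**Figure D2:**
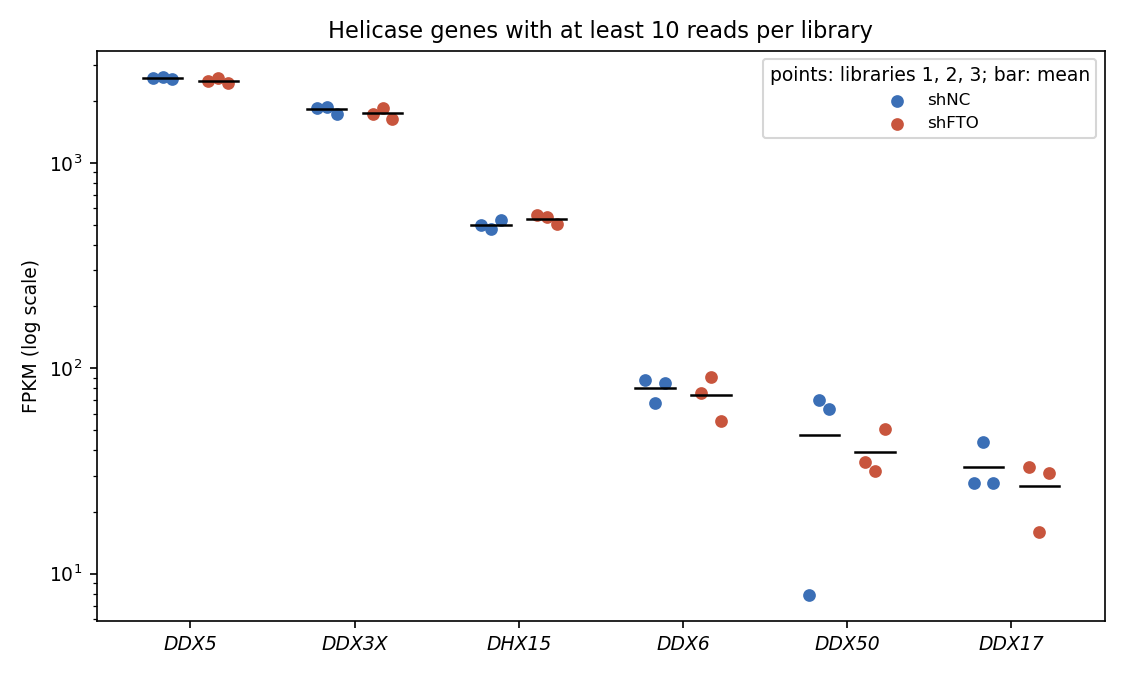
FPKM (log scale) of the 6 helicase genes that average 10 reads or more, with 1 point per library and a bar at each group mean. The groups overlap for each of the 6 genes, and DDX50 in shNC replicate 1 lies at 7.9 FPKM.

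Over the whole table, limma called 2 of 4932 tested genes, or 0.0406%, both lower in shFTO, at a Benjamini-Hochberg adjusted p under 0.05. Of the 54 helicase genes 19 had a mean of at least 1 FPKM in a group and were tested, and 0 rose and 0 fell. At an unadjusted p under 0.05 the count was also 0, beside 190 of all 4932 tested genes, and with 19 genes this is only a description. Point estimates were above 0 for 8 and below 0 for 11. Their median log2 change was -0.06 beside 0.00 over all tested genes, and the median absolute change was 0.73 beside 0.70. For the 6 that average 10 reads or more it was 0.11, beside 0.18 over the 705 genes of the whole table that do so. DDX3X, DDX5 and DHX15 averaged 2776, 2341 and 417 reads per library, so these medians were not matched for depth. The shFTO libraries lay wholly above the shNC libraries for 2.9% of all tested genes and wholly below for 3.69%, or 6.59% in all. This was so for 9.79% of the 705 better-read genes. Among helicase genes it was so for 0 of the 19 tested and 0 of the 6 better-read ones, numbers at which such shares come to about 1 gene or fewer.

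A quasi-Poisson fit to the recovered reads, for genes with at least 30 reads, gave narrower intervals. It called 0 of 6 helicase genes and 0 of 1021 genes in all, a background of 0%, while 54 genes had an unadjusted p under 0.05. DDX3X was 1 of the 54, with a log2 change of -0.07 (SE 0.03, unadjusted p = 0.0317, adjusted p = 0.842, with the dispersion moderated by limma). That SE rests on a moderated dispersion of 1.98, well under the 7.59 of DDX3X itself. Limma-voom on the same reads over all 4932 genes differed: it called 11 genes, or 0.223%, with 3 higher in shFTO (0.0608%) and 8 lower (0.162%). Of the 8 lower ones 2 were DDX3X (log2 change -0.09, SE 0.0057, adjusted p = 3.1e-47) and DDX5 (-0.06, SE 0.0088, adjusted p = 2.3e-07). Those SEs are smaller than the 0.0224 and 0.0243 that counting error alone gives for DDX3X and DDX5. With limma-voom limited to the 705 better-read genes, the count of calls was 0, and 40 genes passed at 0.05 before adjustment. DDX3X then had an SE of 0.04 and an adjusted p of 0.913, and DDX5 an SE of 0.05 and an adjusted p of 0.938.

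**Figure D3:**
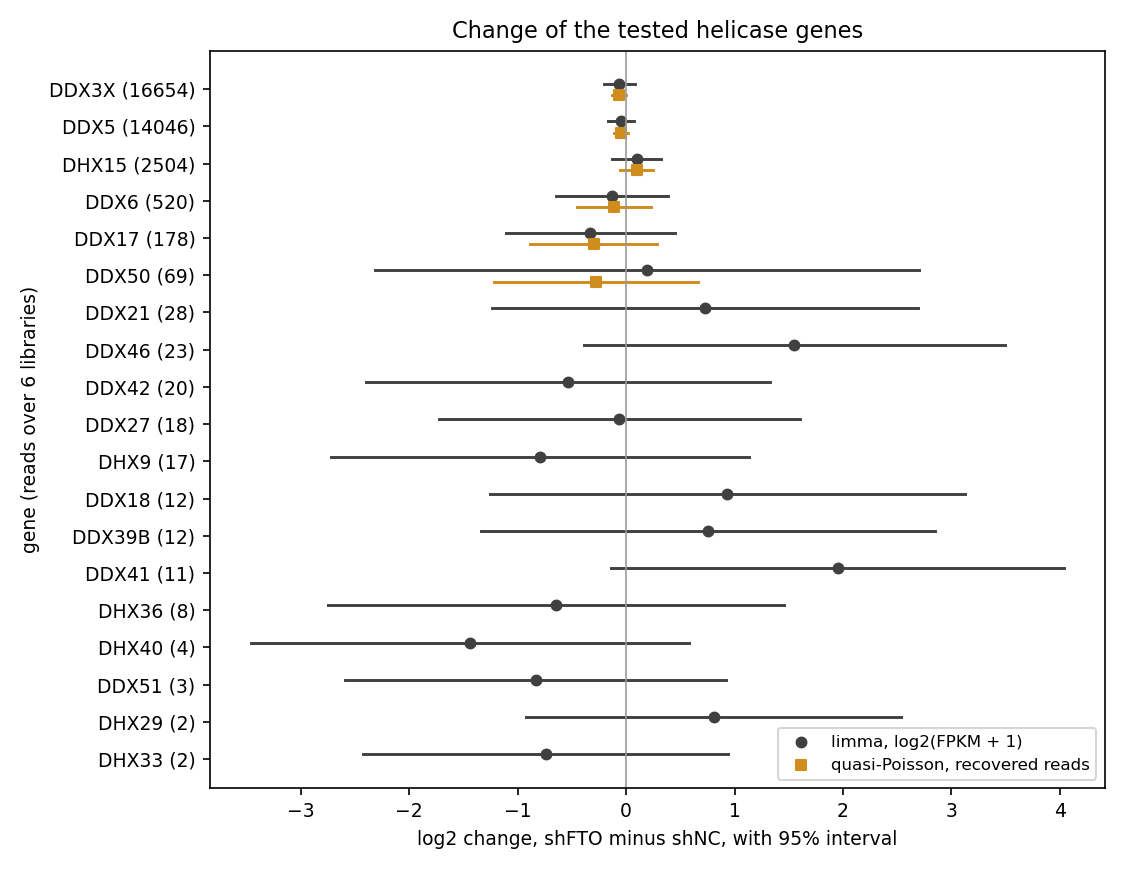
Log2 change of shFTO minus shNC with its 95% interval for the 19 tested helicase genes, from limma (circles) and, for 6 genes, from the quasi-Poisson fit (squares). Genes run from most reads at the top to fewest, the number is in parentheses, and every limma interval includes 0.

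The spread between libraries also differed between members. Before moderation, the variance of reads around the group means in the quasi-Poisson fit was 1.07 times the Poisson variance for DDX5 and for DHX15. It was 7.59 times for DDX3X, 3.5 for DDX50, 3.27 for DDX6 and 2.81 for DDX17. Each of these ratios rests on 6 libraries.

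By role, splicing helicases were detected most widely. Of 13 such genes 11 had reads and 8 were tested, and 0 rose and 0 fell. Besides DDX5, DDX17 and DHX15 they had 1 to 23 reads. DDX46, a helicase of early spliceosome assembly, had 5, 1 and 0 reads in shNC and 6, 6 and 5 in shFTO. Its shFTO libraries were even and its shNC libraries were not, and shNC replicate 1 lay within the shFTO range in FPKM. The log2 change was 1.55 (SE 0.96, limma adjusted p = 0.772). C5orf24, which overlaps DDX46 on the same strand, had 15 reads. DDX41, a helicase of the later spliceosome, had 0, 0 and 2 reads against 1, 3 and 5, with 1.70 ± 2.95 and 7.15 ± 4.68 FPKM. Its log2 change of 1.95 (SE 1.03, unadjusted p = 0.0663, limma adjusted p = 0.772) had the smallest p among the tested members. DHX9, a nuclear helicase with many partners, had 10 and 7 reads, DDX42 had 12 and 8, and the export and splicing factor DDX39B had 4 and 8. DHX8 and DHX16, which drive steps of splicing, were listed at 0.

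Helicases of ribosome assembly and the nucleolus were sparse. Of 16 genes 9 had reads, 137 in all, and 69 of these were of DDX50. Of 6 tested, 0 rose and 0 fell. DDX21, a nucleolar helicase, lies 9287 bases downstream of DDX50 on the same strand of chromosome 10, and had 28 reads against 69. It had 1, 4 and 2 reads in shNC and 3, 17 and 1 in shFTO. One library, shFTO replicate 2, thus held 17 of the 28 reads. Without it shNC had 7 reads over 3 libraries and shFTO had 4 over 2. DDX18, a ribosome assembly helicase, had 1, 1 and 0 reads against 2, 0 and 8, so shFTO replicate 3 held 8 of its 12. DDX27, another of this group, had 9 and 9 reads. DDX10, DDX24, DDX31, DDX47, DDX49, DDX54 and DHX37 were listed at 0.

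**Figure D4:**
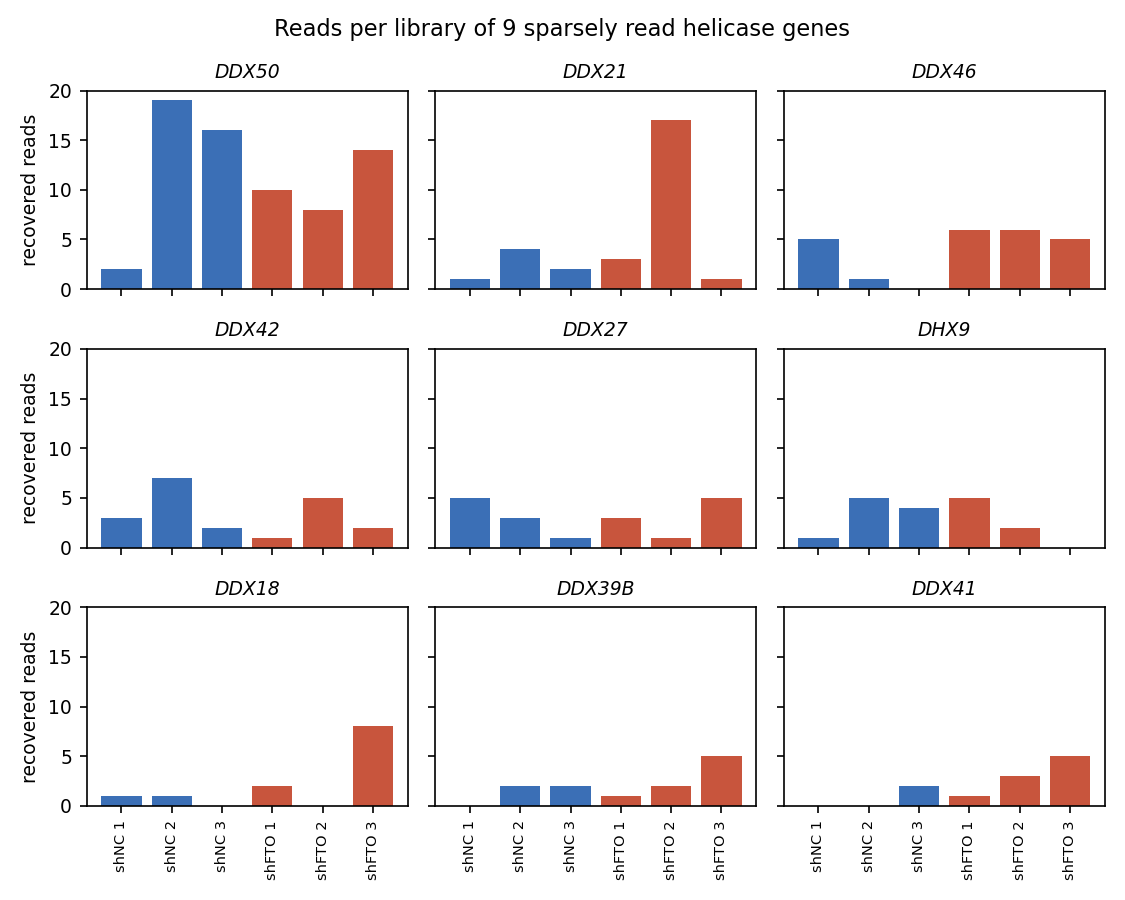
Recovered reads in each library for 9 sparsely read helicase genes, with shNC in blue and shFTO in red. Single libraries hold much of a total, such as 17 of 28 reads of DDX21 in shFTO replicate 2, and DDX50 has 2 reads in shNC replicate 1.

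Among the 8 genes of translation, mRNA export, storage and decay, 5 had reads and 4 were tested, and 0 rose and 0 fell. Beyond DDX3X and DDX6, DHX36, which unwinds G-quadruplexes, had 5 and 3 reads, and the initiation helicase DHX29 had 2 reads, both in shFTO replicate 2. The export helicases DDX19A and DDX19B, neighbours on chromosome 16, were both at 0, as was DHX34 of nonsense-mediated decay. Of the 4 antiviral sensors only DHX58 had a read, while DDX58, which encodes RIG-I, DDX60 and DDX60L were at 0. Mitochondrial (DDX28, DHX30) and germ line (DDX4, DDX25, DDX43, DDX53) helicases were at 0 in every library. Among 7 genes of other roles DHX40 had 2, 2 and 0 reads in shNC and 0 in shFTO (log2 change -1.44, SE 1.00, limma adjusted p = 0.772), and DDX11 and DDX20 were at 0. DDX51, of ribosome assembly, had its 3 reads in shNC replicate 2 (log2 change -0.84, SE 0.87, limma adjusted p = 0.772).

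Of the 19 tested genes 13 averaged fewer than 10 reads, 5 of these passed the filter through 1 group alone, and 3 had all their reads in a single library. Their SEs ran from 0.82 to 1.08 on the log2 scale, so a 2-fold change was not detectable for them at this depth. Fitted changes of these sparse genes also depend on the pseudocount. With 0.1 in place of 1 the estimate was 3.997 for DDX41, 2.80 for DDX46, -3.44 for DHX40 and -1.86 for DDX51, and without shNC replicate 3 that of DDX46 was 0.92. For DHX40 and DDX51, with shFTO at 0 throughout, the fitted change is no bound on the ratio.

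As a whole the family made up 5905, 5968 and 5700 of 100000 reads in the shNC replicates and 5660, 5947 and 5417 in the shFTO replicates. The groups overlapped, at 5858 ± 140 and 5675 ± 265. The difference of -183 was -54.3 without shFTO replicate 3 and -319 without shFTO replicate 2. Without DDX3X and DDX5 the order of the means turned, with 572 ± 15.6 and 592 ± 35.7 of 100000 reads. The number of members with a read was 16 to 20 in shNC and 16 or 17 in shFTO.

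GGACT, a common core of the sequence that N6-methyladenosine methyltransferases mark, was counted on the sense strand of the coding sequences. DDX5 held 2 matches, DDX3X and DHX15 held 1 each and DDX17, DDX6 and DDX50 held 0. In all, 46 of 54 helicase genes had a match, with a median of 0.781 per kilobase, while 72.1% of 19519 coding sequences of the reference had one, with a median of 0.963 per kilobase. The shares with a match were not adjusted for coding length, and untranslated regions were not searched. A match is a run of letters and not a methylated site.

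RNA helicases with other symbols were also unevenly read. Of 22 listed, 1 is DDX58 under its newer name, and of the other 21, 14 had reads, 9 were tested and 0 rose and 0 fell. The median log2 change of the 9 was -0.46, beside 0.00 over all tested genes. Only 2 of the 21 averaged 10 reads or more per library, and 8 had 1 to 9 reads in all. The median thus rests mostly on sparse genes, and the median absolute change over all tested genes was 0.70. EIF4A2, a DEAD box subunit of the cap-binding complex, held 4511 of their 4656 reads, at 1280 ± 73.2 FPKM in shNC and 1206 ± 65.6 in shFTO (log2 change -0.09, SE 0.08, limma adjusted p = 0.772). Its paralogue EIF4A1 had 3 reads and the exon junction subunit EIF4A3 had 1, both named after their values were seen. Per length, EIF4A2 lay between DDX3X and DHX15.

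Proteins that switch such helicases on were also counted. G-patch proteins, which activate DEAH helicases, took 24 entries of the table, of which 15 had reads and 10 were tested, and 0 rose and 0 fell. Their median log2 change was -0.18, again mostly from sparse genes, since 2 of the 24 averaged 10 reads or more per library. SON, a splicing cofactor with a G-patch, stood at 116, 110 and 111 FPKM in the shNC replicates and at 150, 156 and 139 in the shFTO replicates. The groups did not overlap, at 112 ± 2.96 and 148 ± 8.71 FPKM, with a log2 change of 0.40 (SE 0.20, unadjusted p = 0.0497, limma adjusted p = 0.772). GPATCH8, named after its values were seen, separated the other way, with 9.80, 8.14 and 9.87 FPKM in shNC and 4.83, 6.55 and 5.96 in shFTO (log2 change -0.60, SE 0.65, limma adjusted p = 0.772). The groups thus did not overlap for 1 higher and 1 lower of the 10 tested genes of this list. Over all 4932 tested genes the shares were 2.9% higher and 3.69% lower. MIF4G-domain and other named partners had reads for 18 of 20, with 14 tested, 0 higher and 0 lower, and a median log2 change of -0.08. EIF4G2, a translation initiation factor that binds eIF4A, held 51570 of their 52637 reads (log2 change -0.04, SE 0.04, limma adjusted p = 0.772). Like DDX3X and DDX5 it was called by limma-voom over all tested genes (-0.03, SE 0.0015, adjusted p = 3.6e-88), with an SE under its counting error of 0.0127, and not with the 705 better-read genes (adjusted p = 0.871).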

How the data were processed

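Poly(A) RNA of 3 shNC and 3 shFTO cultures of MG63 was sequenced, per the labels. The submitters' processing notes name FastQC 0.10.1, HISAT2 2.2.1, StringTie 1.3.3b, HTSeq 0.6.1, DESeq2 1.50.2 and the build GRCh38. How these were combined, and whether counting used strand, is not given in the sources used here. Values deposited by the authors are FPKM per gene, rounded to 2 decimals. Whole reads were computed back by searching, between 20000 and 200000, for the library total that turns every value into a whole number; 100% of values above 0 came within 0.05 read.

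Group changes were tested with limma 3.58.1 (R 4.3.3; robust, with a trend) on log2(FPKM + 1). The 4932 genes whose mean reached 1 FPKM in shNC or shFTO were tested, with the group as the only term and Benjamini-Hochberg adjustment over all of them. The code was tested on simulated data. Described in full were members averaging 10 reads or more per library and the 4 others with the smallest p, and of the other lists the genes averaging 100 reads or more. Further sparse members were named to account for the family. The members, lists and alternatives were chosen with earlier results of these data known. Libraries of a group differed by more than counting error (chi-square 1.73 to 1.97 per degree of freedom). Coding sequences came from GENCODE release 29, in which all 54 gene IDs were found on the same chromosome and strand, taking 1 principal transcript a gene. Summaries used Python 3.11.15.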

Additional observations from a re-analysis of the deposited data

How the results depend on the processing

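The count of called helicase genes was 0 of those tested under every alternative run but one, limma-voom on recovered reads over all tested genes, which called 2. The count over all genes was 2 as reported. It was 7 with a pseudocount of 0.1, 9 with no filter, 0 with at least 10 reads per library, 11 in limma-voom, 0 in limma-voom at 10 reads per library (chosen after seeing the data) and 0 in the quasi-Poisson fit. Leaving out 1 library gave 2 to 9 calls. With the replicate number as a block (the replicate block) 17 genes were called, 0 of them helicases. Deviations of same-numbered libraries from their group means had correlations of -0.003, 0.04 and -0.01 over 705 genes. For libraries of unlike number they ran from -0.03 to 0.03. Counting error enters these deviations, so such values cannot decide whether the numbers pair the samples. Median-of-ratios scaling left 2 calls. For the 14 genes described with a test (the recomputed values of the 4 outside the family were added after seeing the data), 174 of 181 recomputed changes kept their direction and their side of the threshold, but sizes moved: with a pseudocount of 0.1 the estimate of DDX41 went from 1.95 to 3.997, that of DDX46 from 1.55 to 2.80 and that of DHX40 from -1.44 to -3.44. The estimate of DDX50 turned to -0.28 in the quasi-Poisson fit and ran from -0.79 to 0.71 with 1 library left out. It was -0.005 without shFTO replicate 3. That of DDX6 ran from -0.29 to 0.0594 likewise, the latter without shFTO replicate 3, and the cause was not tested. The difference in the family's reads per 100000 was -183 as reported, -319 to -54.3 with 1 library left out, 20.7 without DDX3X and DDX5 and 25.8 when the 10 genes with the most reads, DDX3X and DDX5 among them, were left out. The 13 sparse tested genes had few reads, and no dispersion was fitted for them. For DDX6, DDX17 and DDX50 the variance between libraries was 3.27, 2.81 and 3.5 times the Poisson variance, and for DDX3X it was 7.59 times. What set the width of the errors was not tested.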

Other observations

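Ratios between the most read members were computed within each library, after their values were seen. The ratio of DDX5 to DDX3X per length was 1.399, 1.403 and 1.476 in shNC replicates 1, 2 and 3 and 1.449, 1.392 and 1.490 in shFTO replicates 1, 2 and 3. The ratio of DHX15 to DDX5 was 0.1924, 0.1816 and 0.2056 in shNC and 0.2224, 0.2118 and 0.2061 in shFTO. The lowest shFTO value of the second ratio, 0.2061 in replicate 3, lay just above the highest shNC value, 0.2056, also in replicate 3. DHX15 had 401 reads in that shNC library and 425 in that shFTO library, so the gap between these 2 libraries lies within counting error. That does not cover the difference between the groups, whose means were 0.1932 ± 0.0120 in shNC and 0.2134 ± 0.0083 in shFTO (SD, n = 3). How often other ratios separate the groups was not computed. No test was run on either ratio, since they were chosen on these values.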
